A study of Homo sapiens with 6 samples.

Results

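The genes described are 31 genes of cholesterol and fatty acid synthesis, with the regulators that control them, in U2OS cells, a human osteosarcoma line. They were chosen by name from pathway membership, with earlier results of these data known, so their shares below are a description. Each symbol was matched to an Ensembl gene through GENCODE 29. All 31 were among the 56982 genes present in both deposited tables, and all 31 passed the filter on low values that left 15001 genes for testing. They form 4 branches, with 7 genes of the mevalonate pathway, 11 of the sterol pathway, 5 of the SREBP machinery and sterol transport, and 8 of fatty acid synthesis and desaturation.

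The study compared wild-type (WT) U2OS cells with G3C2, a clone made by CRISPR/Cas9 editing of ZFP36L1 and labelled ZFP36L1 deficient, to ask how loss of this RNA-binding protein affects gene expression. Both genotypes were grown in DMEM with 10% foetal bovine serum and antibiotics and were harvested in log phase at 65 to 75% confluency, with no further treatment. Poly(A) RNA was sequenced from 3 libraries per genotype, here called replicates 1, b and c. The values are FPKM (fragments per kilobase of transcript, scaled to a size set for each library). Deficiency was checked by the submitters by sequencing and western blotting, per the labels, but with 1 clone the genotype and the clone cannot be told apart.

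The deposited values came in a first table, which held replicate 1, and a second on another scale with the libraries labelled b and c, so each difference was taken within a table. Reads recovered from the second table came to 22614634 to 28977502 per library, and for the first table the depth is unknown. Of the 10 osteoblast and mesenchymal markers examined, 5 had at least 1 FPKM in all 6 libraries, while SP7, ALPL, COL1A2, BGLAP and IBSP lay under 1 FPKM in all 6. All 5 markers of fat cells and all 5 of blood cells were under 1 FPKM in all 6 libraries. ZFP36L1 mRNA had a log2 difference, G3C2 minus WT, of 0.26 (SE 0.33, n = 3 libraries per genotype, limma adjusted p = 0.752). It went both ways, with 0.52, 0.87 and -0.62 in replicates 1, b and c, and a transcript level does not check an edit.

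Cholesterol is built from acetyl-CoA through mevalonate to farnesyl diphosphate, which is then joined into squalene, closed into lanosterol and trimmed to cholesterol. The genes of this route are controlled by SREBP-2 (gene SREBF2), and those of fatty acid synthesis mainly by SREBP-1 (gene SREBF1). Both are membrane-bound transcription factors that SCAP carries from the endoplasmic reticulum to the Golgi for cleavage when sterols are scarce, while INSIG1 holds SCAP back when sterols are plentiful. SREBPs act at promoters together with NF-Y, which binds CCAAT boxes, and Sp1, which binds GC boxes. ZFP36L1 binds AU-rich elements in the 3′ untranslated regions of mRNAs and promotes their decay.

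The DNA just upstream of 4 members is printed because these are the members with the lowest differences, G3C2 minus WT, among those with a RefSeq promoter window. The sequences are from RefSeq (GRCh38.p14), run 5′ to 3′ on the strand of the gene and hold no annotated exon. Capitals mark CCAAT or its complement ATTGG (the NF-Y box) and GGGCGG or its complement CCGCCC (the Sp1 box). MVD makes isopentenyl diphosphate, and its stretch lies at chr16:88663162-88663297 on the minus strand with 3 NF-Y boxes and 1 Sp1 box. HMGCS1 makes HMG-CoA, and its stretch lies at chr5:43313513-43313662 on the minus strand. INSIG1 lies on the plus strand of chromosome 7 with its stretch at chr7:155297628-155297775. LSS closes the sterol ring system, and its stretch lies at chr21:46228825-46229024 on the minus strand.
MVD: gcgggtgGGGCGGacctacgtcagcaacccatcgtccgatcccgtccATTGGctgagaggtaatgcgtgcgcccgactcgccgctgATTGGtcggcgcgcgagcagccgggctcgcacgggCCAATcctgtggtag
HMGCS1: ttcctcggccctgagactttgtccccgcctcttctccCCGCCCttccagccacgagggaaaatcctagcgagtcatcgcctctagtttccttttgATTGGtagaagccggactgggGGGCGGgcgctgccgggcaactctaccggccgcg
INSIG1: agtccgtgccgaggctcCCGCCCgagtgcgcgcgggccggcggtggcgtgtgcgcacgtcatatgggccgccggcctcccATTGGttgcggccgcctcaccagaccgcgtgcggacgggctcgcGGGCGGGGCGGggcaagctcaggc
LSS: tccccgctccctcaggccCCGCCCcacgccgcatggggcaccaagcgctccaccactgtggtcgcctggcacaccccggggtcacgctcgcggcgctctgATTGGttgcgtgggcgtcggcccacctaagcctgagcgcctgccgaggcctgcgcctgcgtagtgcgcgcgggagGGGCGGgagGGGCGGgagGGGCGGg

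Windows from 250 bases before to 50 bases after a transcript start were held for 27 of the 31 members, with ACAT2, FDFT1, SQLE and FASN missing. These 27 members had 38 windows, and a gene was counted if any of its windows held the motif. The number of windows per gene was not matched between members and other genes. A CCAAT box on either strand was found in 20 of the 27 members (74.1%), against 43.3% of 9661 tested protein-coding genes and 39.7% of all 27305 genes with a window. By branch it was found in 5 of 6 mevalonate, 8 of 9 sterol, 3 of 5 SREBP machinery and 4 of 7 fatty acid genes. The Sp1 box GGGCGG was found in 26 members (96.3%), against 78.4% of the tested coding genes and 48.3% of all genes. These are matches of letters in a window and not sites shown to be bound.

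The sterol regulatory element and its relatives were searched in the same windows, since SREBPs bind these letters. TCACNCCAC was found on either strand in SREBF2 alone (3.7% of members, 1.52% of tested coding genes and 1.39% of all genes). TCACGTGA, an E-box form, was found in INSIG1 alone (3.7%, 2.29% and 1.18%). TCACCCCA, a spelling that overlaps TCACNCCAC, was found in MVK and SREBF2 (7.41%, 1.86% and 1.88%). The 3 sites follow with the motif in capitals and 10 flanking bases on each side. The SREBF2 site lies at chr22:41832962-41832990, the INSIG1 site at chr7:155297812-155297839 and the MVK site at chr12:109573589-109573616, all on the plus strand of GRCh38.p14. The motifs begin at positions -133, -56 and -195 relative to a RefSeq transcript start, in that order, and those of INSIG1 and MVK lie within the bounds of the GENCODE gene.
SREBF2: tgacgcgccaTCACCCCACgcaccgcttc
INSIG1: ccgggcaggcTCACGTGAtgcgggcccc
MVK: ttcgcagttcTCACCCCAgggcgggaca

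Genes of both synthesis routes lay mostly lower in G3C2, and none passed the test over all genes. With limma on log2(FPKM + 1) and Benjamini-Hochberg adjustment, 0 of 31 members had an adjusted p under 0.05, against 0.0467% of the 15001 tested genes (7 genes). At an unadjusted limma p under 0.05, 7 members (22.6%) were lower in G3C2, namely HMGCS1, MVK, MVD, SQLE, LSS, DHCR7 and INSIG1, against 7.43% of all tested genes. None was higher, against 6.19% of all tested genes. The count of 7 lower members became 2 without either library of replicate 1 or without both, 12 without G3C2 replicate b and 15 without replicate c. In the same fits 1110 to 1122, 1566 and 3369 of all genes, in either direction, had an unadjusted limma p under 0.05. In 20 members (64.5%) the value was lower in G3C2 in all 3 replicate pairs, against 18.6% of all tested genes, and with b and c crossed in 12 members (38.7%), against 19.7%. SREBF1 alone was higher in all 3 pairs (3.23%, against 17.8% of all tested genes), and its estimate turned to -0.09 with limma-voom on recovered reads. In bulk RNA, fewer expressing cells and less RNA per cell cannot be told apart. All differences given are G3C2 minus WT on the log2(FPKM + 1) scale, which understates the change of genes with low values.

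The members' differences had a median of -0.34, against 0.01 over all tested genes. By pair the members' medians were -0.39, -0.25 and -0.49 for replicates 1, b and c, against -0.08, -0.01 and 0.07 over all tested genes. Counted singly, 25 (80.6%), 27 (87.1%) and 25 (80.6%) of the 31 members lay lower in G3C2 in replicates 1, b and c, against 58.4%, 50.7% and 43.8% of all tested genes. The replicate labels b and c need not mark a shared culture, so a count that does not pair them was also taken. G3C2 lay below WT in the first table, and both G3C2 libraries below both WT libraries in the second, for 11 members (35.5%), against 14.8% of all tested genes. These were ACAT2, HMGCS1, MVK, MVD, SQLE, LSS, SC5D, DHCR7, INSIG1, ACACA and LPIN1. All p-values rest on the spread among these 6 libraries, which may be technical.

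**Figure D1:**
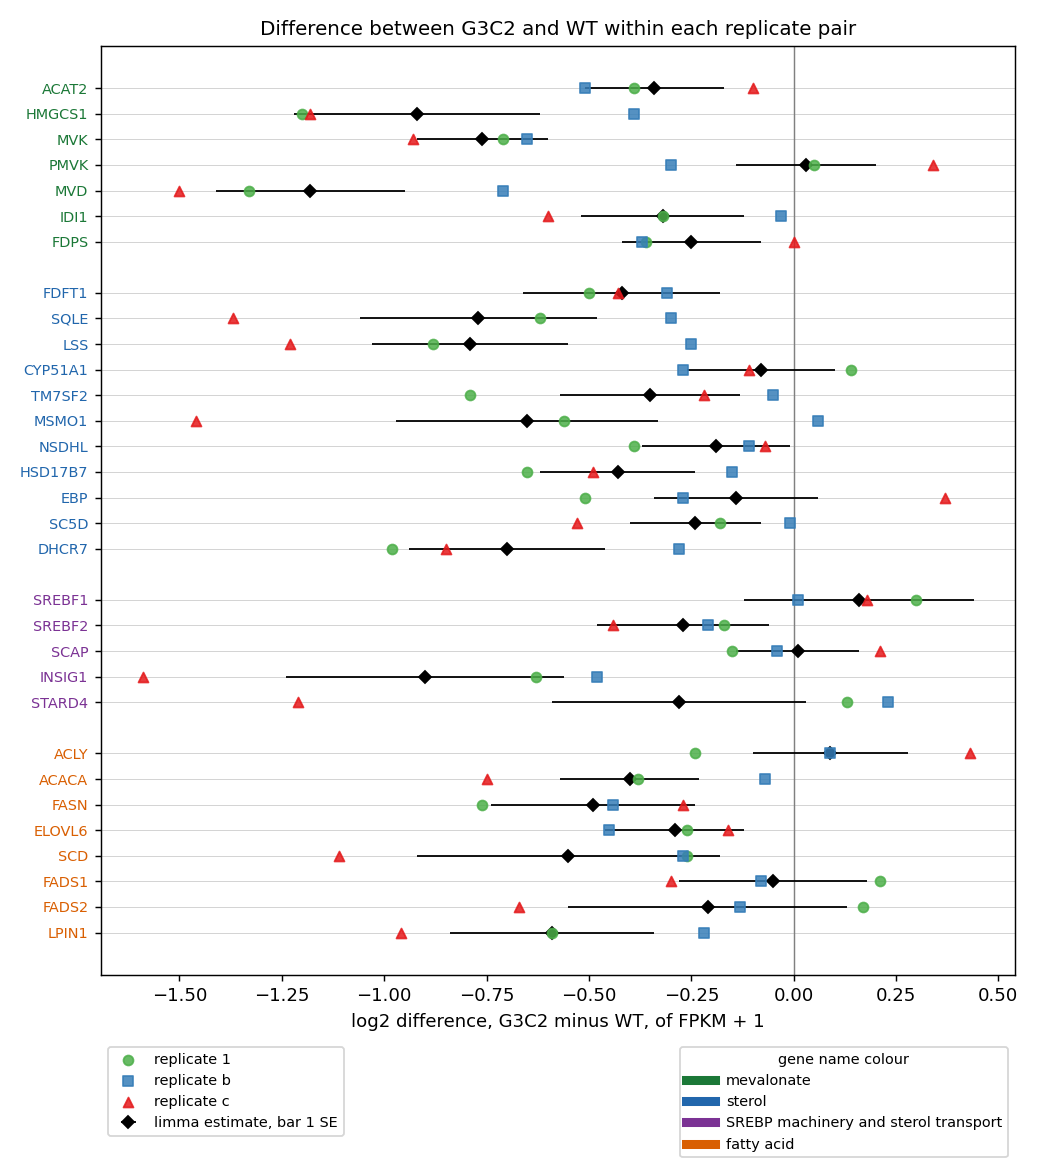
Difference between G3C2 and WT (log2 of FPKM + 1, x axis) for each of the 31 genes (y axis), with coloured points for replicates 1, b and c and a black diamond with a bar of 1 SE for the limma estimate. Most points lie left of 0, MVD has the lowest estimate (-1.18), and SREBF1 has all 3 points at or right of 0.

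The mevalonate branch held the lowest difference of all members, at MVD, the decarboxylase that makes isopentenyl diphosphate. MVD (ENSG00000167508, chromosome 16, 88651935 to 88663161, minus strand, GENCODE 29 on GRCh38 as for all genes here) had 82.5, 27.2 and 27.2 FPKM in the WT libraries 1, b and c and 32.2, 16.2 and 8.99 in G3C2. The clone thus held 39.0%, 59.7% and 33.1% of the WT value, and the second table's genotypes did not overlap. Its log2 difference was -1.18 (SE 0.23, n = 3 libraries per genotype, limma adjusted p = 0.149), and only 85 of the tested genes (0.567%) had a lower one. Over the alternatives run, its limma adjusted p ranged from 0.0152 to 0.813.

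MVK, mevalonate kinase, and MVD were the members lower by at least 0.5 in all 3 pairs (2 of 31, 6.45%, against 1.71% of all tested genes). MVK (ENSG00000110921, chromosome 12, 109573255 to 109598117, plus strand) had 19.9, 9.19 and 8.17 FPKM in the WT libraries 1, b and c and 11.8, 5.49 and 3.80 in G3C2. All 3 pairs gave a similar size, 59.2%, 59.8% and 46.6% of WT, and the second table's genotypes did not overlap. The log2 difference was -0.76 (SE 0.16, n = 3 libraries per genotype, limma adjusted p = 0.165). MVK shares 306 bases of exon (4.72% of its own) with MMAB, a gene of vitamin B12 metabolism on the opposite strand. MMAB had a log2 difference of -0.49 (SE 0.16), and without a stated strand setting the shared reads cannot be told apart.

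HMGCS1, which condenses acetyl-CoA with acetoacetyl-CoA to HMG-CoA, was an abundant member in the first table. HMGCS1 (ENSG00000112972, chromosome 5, 43289395 to 43313512, minus strand) had 328, 79.9 and 66.6 FPKM in the WT libraries 1, b and c and 142, 60.6 and 28.8 in G3C2. G3C2 was lower in each pair, at 43.4%, 75.9% and 43.2% of WT, and the second table's genotypes did not overlap. The estimated log2 difference for HMGCS1 was -0.92 (SE 0.30, n = 3 libraries per genotype, limma adjusted p = 0.277).

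The remaining 4 mevalonate genes had smaller differences. ACAT2, the cytosolic thiolase that supplies acetoacetyl-CoA, was lower in all 3 pairs, at 75.5%, 68.6% and 92.6% of WT (log2 difference -0.34, SE 0.17). ACAT2 shares 397 bases of exon (9.23% of its own) with TCP1, a chaperonin subunit on the opposite strand that had a log2 difference of 0.58 (SE 0.30). IDI1, the isomerase after MVD, was at 79.5%, 97.7% and 62.1% of WT. FDPS, which makes farnesyl diphosphate, was at 77.3%, 76.4% and 100%. It shares 18.6% of its exon bases with the antisense gene RUSC1-AS1. PMVK, the kinase between MVK and MVD, went both ways, with pair differences of 0.05, -0.30 and 0.34 and an estimate of 0.03 (SE 0.17). MVK and MVD, the enzymes before and after PMVK, were lower by at least 0.5 in every pair, and PMVK was not.

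In the sterol branch, 8 of 11 genes (72.7%) were lower in all 3 pairs, against 18.6% of all tested genes. SQLE, LSS and DHCR7 were lower at an unadjusted limma p under 0.05, against 7.43% of all tested genes. SQLE (ENSG00000104549), the oxygenase that makes squalene epoxide, had 259.8, 77.5 and 79.4 FPKM in the WT libraries 1, b and c and 168, 62.7 and 30.1 in G3C2. The clone held 64.8%, 80.8% and 37.9% of WT, with no overlap in the second table and the largest gap in replicate c. The log2 difference was -0.77 (SE 0.29, n = 3 libraries per genotype, limma adjusted p = 0.327).

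LSS, which folds squalene epoxide into lanosterol, is the next enzyme and had a difference of like size. LSS (ENSG00000160285, chromosome 21, 46188141 to 46228824, minus strand) had 60.7, 5.49 and 6.06 FPKM in the WT libraries 1, b and c and 32.6, 4.46 and 2.0 in G3C2. That is 53.6%, 81.1% and 33.0% of WT, again without overlap in the second table. On the log2 scale LSS differed by -0.79 (SE 0.24, n = 3 libraries per genotype, limma adjusted p = 0.248).

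DHCR7, the reductase that turns 7-dehydrocholesterol into cholesterol, stands at the end of the route. DHCR7 (ENSG00000172893, chromosome 11, 71428193 to 71452868, minus strand) had 208, 60.4 and 54.4 FPKM in the WT libraries 1, b and c and 105, 49.7 and 29.8 in G3C2. The clone held 50.5%, 82.2% and 54.7% of WT, and the second table's genotypes did not overlap. The fit gave DHCR7 a log2 difference of -0.70 (SE 0.24, n = 3 libraries per genotype, limma adjusted p = 0.289).

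The other 8 sterol genes had log2 differences between -0.65 and -0.08. MSMO1, which removes methyl groups at position C4, had the lowest of these (-0.65, SE 0.32), but its pairs ran from 0.06 in replicate b to -1.46 in replicate c. HSD17B7, a ketosteroid reductase of the same demethylation (-0.43, SE 0.19), and FDFT1, squalene synthase (-0.42, SE 0.24), were lower in all 3 pairs. So were TM7SF2, a sterol C14 reductase (-0.35, SE 0.22), SC5D, the C5 desaturase (-0.24, SE 0.16), and NSDHL, the C4 decarboxylase (-0.19, SE 0.18). EBP, the sterol isomerase, was at 69.5%, 81.8% and 132% of WT in replicates 1, b and c. CYP51A1, the lanosterol demethylase, was at 114%, 79.5% and 90.3%, so these 2 genes did not keep a direction.

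FDFT1 stood apart in level between the tables. Its WT value was 208.9 FPKM in the first table and 2.77 and 1.53 in the second, where 427 and 202 reads lay behind it. ACACA, the acetyl-CoA carboxylase, did the same with 102.9, 0.92 and 1.46 FPKM. Their ratios of the first to the second table in WT were 97.3 and 86.1, against a median of 3.13 and a 95th percentile of 13.8 over 10730 genes with at least 5 FPKM. Why the tables differ for these genes was not tested. With both left out, the sterol median moved from -0.42 to -0.39 and the fatty acid median from -0.35 to -0.29.

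**Figure D2:**
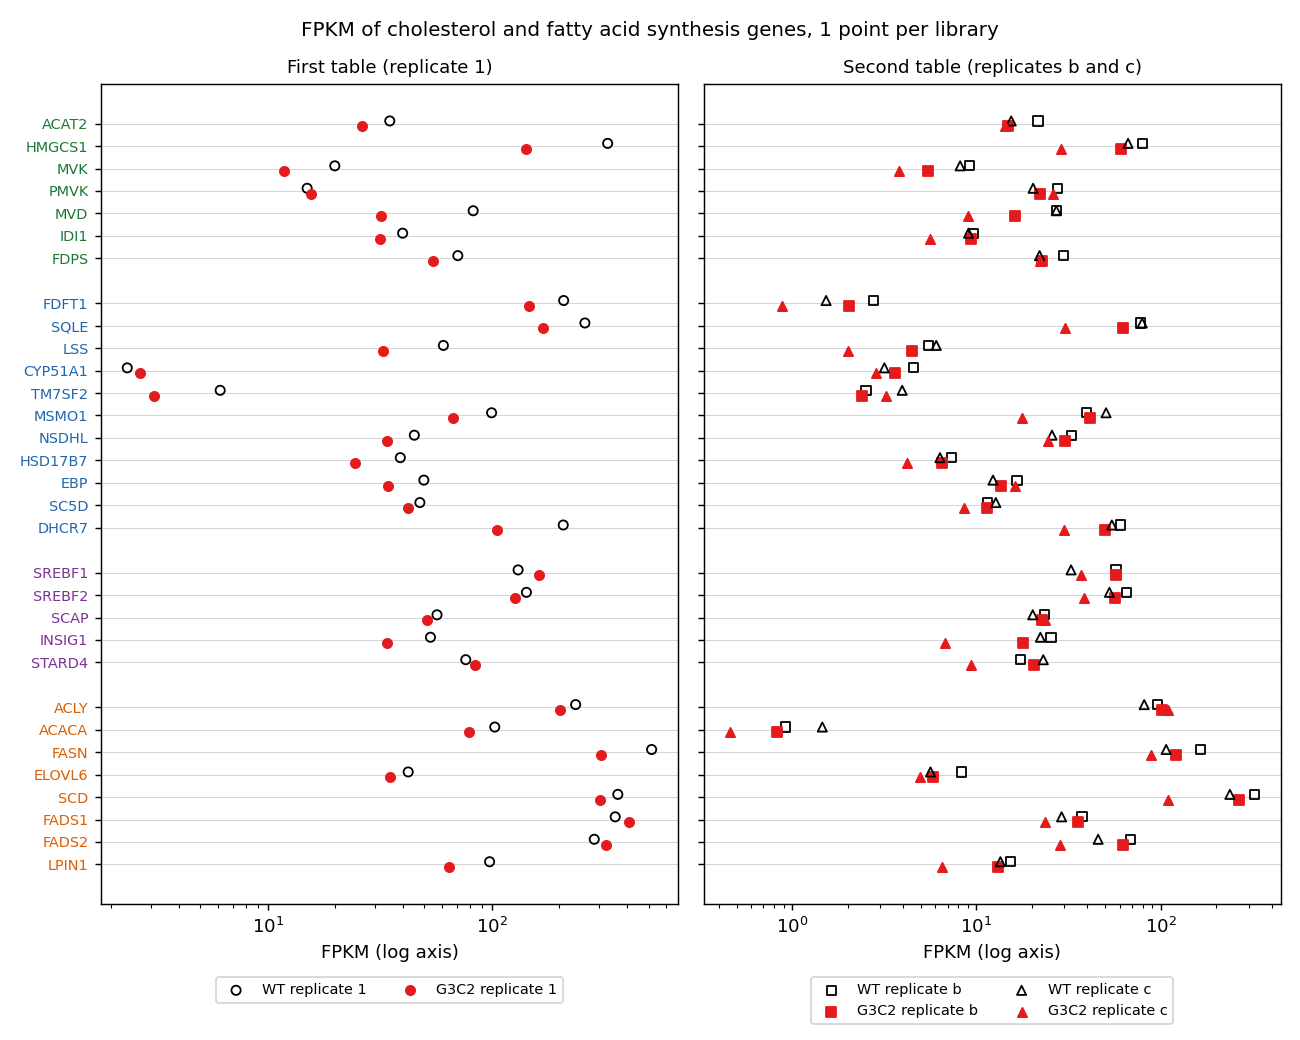
FPKM on a log axis for each of the 31 genes in the 6 libraries, with WT and G3C2 marked separately and the first and second tables in panels with different axis ranges. Levels in the first table are mostly higher than in the second, and FDFT1 and ACACA show the widest gap between tables.

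Within the SREBP machinery, INSIG1 was lower in G3C2, while the SREBP genes and SCAP lay closer to WT. INSIG1 (ENSG00000186480, chromosome 7, 155297776 to 155310235, plus strand), the sterol-dependent anchor of SCAP and itself a target of SREBPs, had 53.2, 25.4 and 22.3 FPKM in the WT libraries 1, b and c and 33.9, 17.9 and 6.75 in G3C2. The clone held 63.7%, 70.5% and 30.3% of WT, with no overlap in the second table. Its log2 difference was -0.90 (SE 0.34, n = 3 libraries per genotype, limma adjusted p = 0.327).

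SREBF2 (ENSG00000198911, chromosome 22, 41833079 to 41907308, plus strand) had 142.5, 65.3 and 52.8 FPKM in the WT libraries 1, b and c and 126.6, 56.4 and 38.6 in G3C2. It was lower in all 3 pairs, at 88.8%, 86.4% and 73.2% of WT, although the genotypes overlapped in the second table. The estimated log2 difference for SREBF2 was -0.27 (SE 0.21, n = 3 libraries per genotype, limma adjusted p = 0.596). SREBF1 (ENSG00000072310, chromosome 17, 17810399 to 17837002, minus strand) had 130.8, 57.3 and 32.7 FPKM in WT and 161.5, 57.5 and 37.1 in G3C2. It lay at or above WT in each pair, with overlap in the second table and a log2 difference of 0.16 (SE 0.28, n = 3 libraries per genotype, limma adjusted p = 0.821). SREBF1 shares 556 bases of exon with RAI1 on the opposite strand, and SREBF2, STARD4, LSS and LPIN1 share 280, 124, 122 and 115 bases with antisense genes.

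SCAP (ENSG00000114650, chromosome 3, 47413694 to 47477126, minus strand) had 56.9, 23.5 and 20.2 FPKM in the WT libraries 1, b and c and 51.2, 22.8 and 23.6 in G3C2. The genotypes overlapped, and the log2 difference was 0.01 (SE 0.15, n = 3 libraries per genotype, limma adjusted p = 0.987). STARD4, a cytosolic carrier of cholesterol, was above WT in replicates 1 and b (110% and 119%) and at 40.7% in replicate c. Its log2 difference of -0.28 (SE 0.31) rested on replicate c, and without that replicate it was 0.18.

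No fatty acid gene had an unadjusted limma p under 0.05, where 7.43% of all tested genes were lower and 6.19% higher. Yet 5 of 8 (62.5%) were lower in all 3 pairs, against 18.6% of all tested genes. FASN (ENSG00000169710, chromosome 17, 82078333 to 82098332, minus strand), the synthase that assembles palmitate, had 515.7, 164.5 and 107.2 FPKM in the WT libraries 1, b and c and 305, 121.4 and 88.7 in G3C2. G3C2 was at 59.1%, 73.8% and 82.8% of WT, but WT replicate c lay below G3C2 replicate b. On the log2 scale FASN differed by -0.49 (SE 0.25, n = 3 libraries per genotype, limma adjusted p = 0.463).

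SCD, the desaturase that makes oleate, had the highest FPKM of all members in 3 of the 4 libraries of the second table. SCD (ENSG00000099194, chromosome 10, 100347124 to 100364834, plus strand) had 364, 322 and 237.7 FPKM in the WT libraries 1, b and c and 303.8, 266.5 and 109.7 in G3C2. The clone was at 83.4%, 82.7% and 46.1% of WT, with overlap in the second table. The fit gave SCD a log2 difference of -0.55 (SE 0.37, n = 3 libraries per genotype, limma adjusted p = 0.554). It was -0.14 without G3C2 replicate c, -0.27 without replicate c and -0.87 without G3C2 replicate b.

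The other 6 fatty acid genes ran from -0.59 to 0.09. LPIN1, a phosphatidate phosphatase of glycerolipid synthesis, had the lowest (-0.59, SE 0.25) and was at 65.9%, 85.1% and 48.0% of WT. ACACA had -0.40 (SE 0.17) and ELOVL6, the elongase of palmitate, -0.29 (SE 0.17), both lower in all 3 pairs. The desaturases FADS2 (-0.21, SE 0.34) and FADS1 (-0.05, SE 0.23) were above WT in replicate 1 and below it in b and c, and they share 490 bases of exon on opposite strands. ACLY, which makes cytosolic acetyl-CoA from citrate and so feeds both routes, was at 84.8%, 106% and 135% of WT (0.09, SE 0.19).

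Set side by side, the branches had medians that differed by less than their pairs did. The mevalonate median was -0.34, with -0.39, -0.39 and -0.60 in replicates 1, b and c. The sterol median was -0.42, with -0.56, -0.25 and -0.49. The fatty acid median was -0.35, with -0.26, -0.18 and -0.48, and that of the SREBP machinery and sterol transport -0.27, with -0.15, -0.04 and -0.44. The counts of genes lower in all 3 pairs were 5 of 7, 8 of 11, 5 of 8 and 2 of 5 in that order. As shares these were 71.4%, 72.7%, 62.5% and 40.0%, against 18.6% of all tested genes, with b and c paired by label. Of the 7 members with an unadjusted limma p under 0.05, all but INSIG1 stood in the mevalonate and sterol branches. That was 6 of 18 genes, against 0 of 8 in the fatty acid branch and 7.43% of all tested genes that were lower. This count does not show that the fatty acid branch was spared. ACACA and LPIN1 fell just above the cut, and the fatty acid median of -0.35 was close to the mevalonate median of -0.34. The difference between branches was not tested, and branches share libraries.

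Between replicates b and c of the second table, the members moved more in G3C2 than in WT. From b to c the members' median log2 change was -0.24 in WT and -0.54 in G3C2, against -0.06 and 0.05 over all tested genes. G3C2 replicate c was the lowest of the 4 libraries for 24 of 31 members (77.4%), against 28.5% of all tested genes. This was not particular to the members. Of 15 related genes of sterol uptake, transport, esterification and the LXR response, it was lowest for 10 (66.7%). In the other 5 lists of related lipid genes described below, the share ran from 15.4% to 30.8%. INSIG1 went by -0.18 in WT and -1.29 in G3C2, and SCD by -0.44 and -1.27. MSMO1 (0.34 and -1.18), STARD4 (0.39 and -1.05), SQLE (0.03 and -1.03) and LSS (0.12 and -0.86) were higher in WT replicate c than b and lower in G3C2. SREBF1 was lower in replicate c in both, by -0.79 in WT and -0.62 in G3C2.

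**Figure D3:**
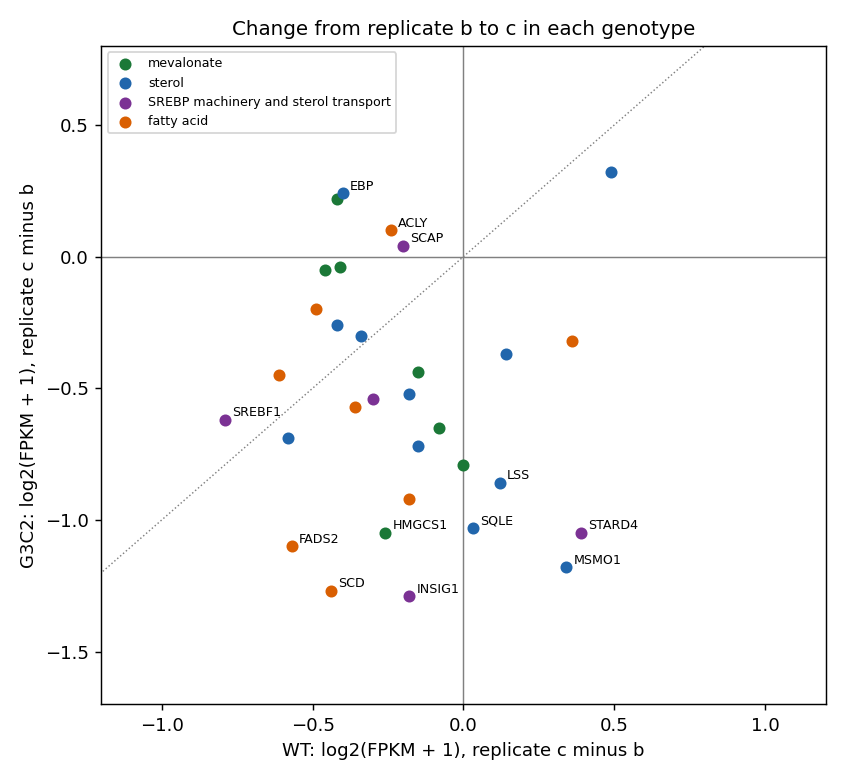
Change from replicate b to replicate c in WT (x axis) and in G3C2 (y axis), as log2 of FPKM + 1, with 1 point per gene coloured by branch. Most genes lie below 0 on the G3C2 axis, 26 of 31, against 6667 of 15001 tested genes. Most also lie below 0 on the WT axis, 23 of 31, against 8501 of 15001. On the G3C2 axis INSIG1, SCD, MSMO1 and FADS2 lie lowest.

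Other transcripts also moved between these libraries. The 17 proliferation genes examined had a median of -0.73 from b to c in WT and 0.72 in G3C2, opposite to each other, and by pair their medians were -0.02, -0.26 and 1.22. The share of FPKM from mitochondrial genes was 8.83% and 14.0% in WT replicates b and c and 7.47% and 6.73% in G3C2. Their part in the members' values was not tested.

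The number of members past the threshold depended on replicate c. Without replicate c, 5 members (16.1%) passed as lower over all genes, against 3.05% of all tested genes (457 genes), in a fit with 1 residual degree of freedom. They were MVD (limma adjusted p = 0.0152), MVK (0.0304), INSIG1 (0.0321), FASN (0.0443) and HMGCS1 (0.0493), with log2 differences of -1.02, -0.68, -0.56, -0.60 and -0.80. No member passed in any other alternative that was run. Without G3C2 replicate c alone, the log2 difference was -0.50 for INSIG1, -0.45 for SQLE, -0.30 for MSMO1, -0.33 for LPIN1, -0.23 for FDFT1 and -0.13 for IDI1. A limma test of whether the difference departed between the tables had 1 library per genotype in the first table, so its spread came from the second alone. Its smallest unadjusted p among members was 0.207 (adjusted 0.948), which does not show that the tables gave the same differences. Over all genes it gave 0 at an adjusted limma p under 0.05 and 429 at an unadjusted p under 0.05.

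The genes around each member were examined for shifts shared along the chromosome. Tested coding genes within 5 Mb of a member had medians between -0.44 and 0.21, taken relative to all tested coding genes, and the median over members was 0.00. MVD stood at the low end, since its 59 neighbours had a median of -0.44, with -0.54, -0.45 and -0.47 in replicates 1, b and c. On the same relative scale MVD itself had -1.2, lower than its surroundings. HMGCS1 stood at the other end, with 22 neighbours at 0.21 and the gene itself at -0.95. In 28 of 31 members the gene's own difference lay below the median of its neighbours, a share not taken over all tested genes. As 27 members had a negative difference and the neighbour medians centred on 0.00, this count mostly repeats that the members lay lower. Copy number was not measured here, and its part in the MVD value was not tested.

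**Figure D4:**
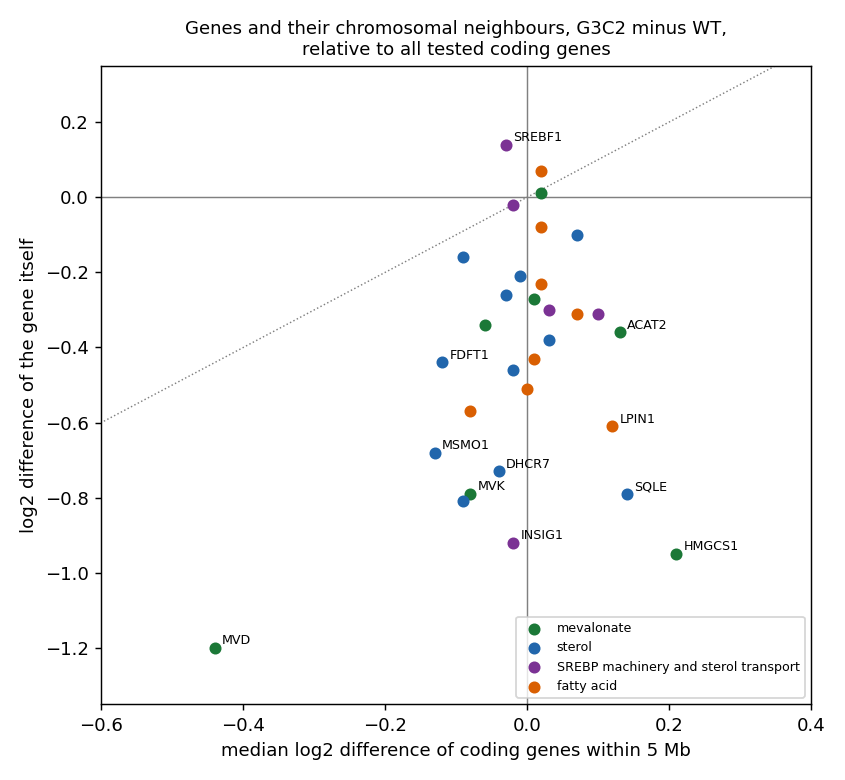
Difference of each gene (y axis) against the median difference of tested coding genes within 5 Mb of it (x axis), both as log2 of FPKM + 1 relative to all tested coding genes, coloured by branch. MVD lies furthest left at -0.44, HMGCS1 furthest right at 0.21, and most genes lie below the line of equal values.

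Related lipid genes outside the 31 had medians from -0.04 to 0.11 by list, though single genes in them lay lower or higher. No gene of the 6 related lipid lists had a limma adjusted p under 0.05. The 13 genes of SREBP processing and sterol sensing had a median of 0.05, with MBTPS1, the protease that makes the first cut in SREBPs, at -0.31 (SE 0.15) and RNF145, a sterol-responsive ubiquitin ligase, at 0.27 (SE 0.22). At an unadjusted limma p under 0.05, MBTPS2, the protease of the second cut, was higher (0.39, SE 0.14) and SEC24D, a COPII coat protein, lower (-0.40, SE 0.16). The 15 genes of sterol uptake, transport and esterification and of the LXR response had a median of 0.05 with none at an unadjusted p under 0.05, and NPC2, a lysosomal sterol carrier, had 0.21 (SE 0.19). Genes named at an unadjusted p under 0.05 in these lists were picked after their values were seen.

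The routes that use farnesyl diphosphate for other products, 13 genes, had a median of 0.11. In all 3 pairs, 4 of the 13 were higher, against 17.8% of all tested genes. Lower in all 3 pairs were 2 (15.4%), against 18.6%. RABGGTB (0.42, SE 0.33) and ICMT (0.29, SE 0.15), those of highest mean FPKM, were higher in all 3 pairs. GGPS1 (-0.42, SE 0.15) and PDSS2 (-0.39, SE 0.13) were lower at an unadjusted limma p under 0.05. The 18 genes of acetyl-CoA and NADPH supply and of fatty acid activation and elongation had a median of -0.04. Of these the elongase ELOVL7 (-0.58, SE 0.13) and the acyl-CoA synthetase ACSL1 (-0.44, SE 0.16) were lower by that measure. Glycerolipid and phospholipid synthesis, with 17 of 18 genes tested, had a median of -0.04. CHKA, PCYT1A, PCYT2 and PTDSS2, enzymes of phospholipid head groups, were lower (-0.59, -0.38, -0.70 and -0.37) and AGPAT1 higher (0.47) at an unadjusted limma p under 0.05. These 4 lower genes of 17 stand beside 7 of 31 members (22.6%) and 7.43% of all tested genes, so this list was not below the members by that count. Fatty acid oxidation, 18 genes, had a median of 0.05, with ACADS alone lower (-0.48, SE 0.19).

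The AU-rich heptamer TATTTAT was searched in each gene's longest 3′ untranslated region in GENCODE 29, as it is the core of the element that ZFP36L1 binds. It was found in 9 of 31 members (29%), against 36.0% of 12113 tested coding genes and 30.9% of 19417 genes, with median region lengths of 1540 bases in the members and 1656 in the tested genes. The 9 were ACACA, ACLY, CYP51A1, FASN, INSIG1, LPIN1, SC5D, SREBF1 and STARD4. Of the 7 members with an unadjusted limma p under 0.05, INSIG1 alone held it. Its sites begin at bases 431 and 1070 of a region of 1965 bases and are printed in turn, with the heptamer in capitals and 11 flanking bases on each side.
INSIG1, base 431: aataggaataaTATTTATccaaaagattt
INSIG1, base 1070: tatctcttaaaTATTTATtttttttaacg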

How the data were processed

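The authors deposited FPKM values, per the file headers, with replicate 1 in one table and the libraries b and c in another. CASAVA, HISAT2 and GRCh38.p12 are named in the submitters' processing notes. For tool versions, counting, strand and gene lengths, the settings are not given in the sources used here. Replicate 1 is so called although its label carries no number.

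Genes present in both tables and reaching 1 FPKM in 2 or more libraries were tested on log2(FPKM + 1) with limma 3.58.1 (R 4.3.3), with genotype and table as terms, a variance trend with the mean, and Benjamini-Hochberg adjusted p-values at 0.05. Of the values for libraries b and c, 97.3% to 97.4% were whole reads within 0.02 reads, given GENCODE 29 exon lengths, and limma-voom on these reads was an alternative (7 genes called). Reads of the first table were not recovered. Libraries with the same label deviated together (r = 0.93 for replicate 1, 0.80 for b and 0.60 for c), though separate tables alone would give this. Within the second table alone, the deviations of WT and G3C2 libraries of the same label had an r of -0.17. The main fit did not pair b and c, and pair differences are given as a description.

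The members and gene lists were chosen with earlier results of these data known. Values in all 6 libraries are given for members with an unadjusted p under 0.05 or a difference of at least 0.5 in 1 direction in all 3 pairs, and for SREBF1, SREBF2, SCAP, INSIG1, HMGCS1, SQLE, FASN and SCD. From each related list, up to 2 genes of highest mean FPKM could be named. Of these lists, the proliferation genes (17 tested) had a median of 0.32. Epithelial and hepatocyte markers had summed FPKM of 3.41 to 20.0 and 6.5 to 22.2 in WT and of 3.67 to 10.3 and 3.81 to 38.5 in G3C2. Alternatives were another pseudocount, filter, scaling and variance model, the block, the second table alone, and each library or pair left out. The fit was also run on simulated data with independent noise. Those data hold no shift shared by the genes of a library, so they cannot show how such shifts affect the results here. Other steps used Python 3.11.15 with pandas 2.3.3, numpy 2.4.6 and matplotlib 3.10.9.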

Additional observations from a re-analysis of the deposited data

How the results depend on the processing

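The members' medians stayed below 0 in every alternative run. Limma-voom was run on reads recovered for libraries b and c. It scaled by the totals of those reads, not by the library size implied by the FPKM. With it the medians moved to -0.55 (mevalonate), -0.52 (SREBP machinery and sterol transport), -0.57 (fatty acid) and -0.55 (all members). The median of all genes was then -0.11. With single libraries or pairs left out, the medians ranged from -0.50 to -0.30 (mevalonate), -0.61 to -0.30 (sterol), -0.41 to -0.03 (SREBP machinery and sterol transport), -0.48 to -0.19 (fatty acid) and -0.49 to -0.25 (all members), and the members past the threshold as lower from 0 to 5. The highest values of the sterol, SREBP machinery, fatty acid and all-member medians came without G3C2 replicate c. With replicates b and c crossed, 12 members in place of 20 were lower in all 3 pairs and 0 in place of 1 higher, and with quantile normalization 0 were higher. The spelling TCACCCCA gave 2 members with a site in place of 1.

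With the replicate block, 0 members passed and the medians were those without it (-0.34 over all members). Members at an unadjusted limma p under 0.05 were 9 with the replicate block, in place of 7, 2 in the second table alone and 1 there with the block. They were 5 with limma-voom, 11 with quantile normalization and 2 to 15 with libraries left out. The counts over all genes, in either direction, were 1782, 1110, 853, 1187, 1980 and 1110 to 3369 in that order, in place of 2043. In the second table alone, the members thus did not stand out from all genes by this count. With the block, 1 gene in place of 7 passed over all genes. The block changed no call of a member. With FDFT1 and ACACA left out, chosen after seeing the data, the median of all members was -0.32.

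Of the 27 members with a negative difference, 22 were negative in every alternative. With quantile normalization PMVK (-0.08), SCAP (-0.10) and ACLY (-0.14) turned negative, as did PMVK (-0.18), SREBF1 (-0.09) and SCAP (-0.10) with limma-voom. EBP turned to 0.05 in the second table alone, with or without the block. With libraries left out, the sign also changed for ACLY (-0.07 to 0.26), CYP51A1 (-0.19 to 0.07), EBP (-0.39 to 0.05), FADS1 (-0.19 to 0.15), FADS2 (-0.47 to 0.16), PMVK (-0.13 to 0.20), SCAP (-0.09 to 0.09), SREBF1 (-0.04 to 0.41) and STARD4 (-0.54 to 0.18). The second table held between 103 and 51298 reads per member and library, the fewest for FDFT1 in G3C2 replicate c, and for the first table the depth is unknown.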
